A study of Mus musculus with 41 samples.

Results

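A set of 10 genes named as targets of Wnt/beta-catenin signalling were read in androgenetic haploid embryonic stem cells (AG-haESCs) of the mouse: Axin2, Lef1, Tcf7, Sp5, T, Cdx1, Nkd1, Nkd2, Lgr5 and Dkk1. The members were taken by symbol, 10 of the 24028 gene symbols in the 13 RNA-seq libraries, and each symbol stood on a single row. AG-haESCs are stem cells that carry only a paternal genome, and all lines here were of the C57BL/6 strain. 2i/L held fetal bovine serum, LIF, the MEK inhibitor PD0325901 at 1 µM and the GSK3 inhibitor CHIR99021 at 3 µM. SF/a2i/L was serum-free, with LIF, the Src inhibitor CGP77675 at 1.5 µM and CHIR99021 at 3 µM. CHIR99021 was thus present at the same dose in all 13 libraries, so no comparison here sets cells with a GSK3 inhibitor against cells without one. The media differed in serum, in base medium and in the second inhibitor, which cannot be told apart. Among the wild-type libraries kept in 1 medium, line and derivation also differed with the medium and cannot be told apart from it.

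In 2i/L, 3 libraries came from the wild-type line 2i-14, at passages p18, p39 and p50. In TSa2i/L, 5 came from wild-type TSa2i-14 (p22, p47 and p54; an actin-EGFP line) and TSa2i-C57 (p9 and p58). TSa2i/L means derivation with serum and a2i/L and then culture in SF/a2i/L. There was 1 library in 2i/L of line 2i-O48, which lacks H19-DMR and IG-DMR, and 1 of line 2i-O48-TKO, which also lacks H19. These DMR-deleted lines and 2i-14 gave 1 further library each 5 passages after a switch from 2i/L to SF/a2i/L. Libraries of a line are passages of that line, not independent lines, and p-values measure the spread between such libraries. Cells were grown on mouse fibroblast feeders, and haploid cells were taken for RNA.

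When Wnt ligands bind their receptors, or when GSK3 is inhibited, beta-catenin escapes degradation, enters the nucleus and acts through TCF/LEF proteins at target genes. In mouse embryonic stem cells a main effect is relief of repression by Tcf7l1, and a stronger or longer signal is known for switching on genes of the primitive streak such as T and Cdx1. Many targets feed back on the pathway as inhibitors, so the group holds activators and brakes alike.

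TCF/LEF proteins recognise CTTTGAT or CTTTGAA, and these letters were searched on both strands in RefSeq promoter windows of 300 bases (250 before the start site, build GRCm38.p6). Of the members, 8 had 12 windows, and 3 of the 12 held a match, in Sp5, T and Dkk1. Among all 32851 windows the share was 8.65%. The 3 windows are shown because they are the member promoters with a match, in capitals, 5′ to 3′ on the strand of the gene. The Sp5 window is chr2:70474673-70474972 on the plus strand, the T window chr17:8434173-8434472 on the plus strand and the Dkk1 window chr19:30549447-30549746 on the minus strand.
Sp5: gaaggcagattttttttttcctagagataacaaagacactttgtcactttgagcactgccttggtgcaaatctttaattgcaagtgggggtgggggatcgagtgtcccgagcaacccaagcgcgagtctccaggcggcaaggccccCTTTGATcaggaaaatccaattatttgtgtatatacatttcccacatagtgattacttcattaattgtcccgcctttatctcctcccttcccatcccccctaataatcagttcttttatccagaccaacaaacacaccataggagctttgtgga
T: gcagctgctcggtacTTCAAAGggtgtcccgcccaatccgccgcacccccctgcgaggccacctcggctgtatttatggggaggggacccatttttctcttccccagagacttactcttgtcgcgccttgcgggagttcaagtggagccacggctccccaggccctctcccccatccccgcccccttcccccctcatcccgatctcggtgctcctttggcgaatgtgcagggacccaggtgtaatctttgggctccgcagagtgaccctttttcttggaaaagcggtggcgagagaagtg
Dkk1: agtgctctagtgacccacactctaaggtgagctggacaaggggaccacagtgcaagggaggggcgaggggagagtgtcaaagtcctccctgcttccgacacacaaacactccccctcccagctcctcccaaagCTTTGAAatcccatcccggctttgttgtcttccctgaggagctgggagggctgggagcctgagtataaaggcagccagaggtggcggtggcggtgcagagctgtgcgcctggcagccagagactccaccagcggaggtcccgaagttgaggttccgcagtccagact
The T match lies on the opposite strand, where it reads CTTTGAA. No match was found in the windows of Axin2, Lef1, Tcf7, Nkd1 and Nkd2, which says only that these letters are not in those windows. Cdx1 and Lgr5 are named only.

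Implied depth was 12700000 to 19700000 fragments per library, and 9258 to 10320 genes reached 1 FPKM. MicroRNA loci took 67.2% of the summed FPKM in switched 2i-14 and 23.2% in 2i-14 p18, against at most 1.06% in the other libraries. Of 9 embryonic stem cell markers, Dppa5a had 14937 to 34461 FPKM, and the other 8 together 924.7 to 1729. The sum of 12 fibroblast markers was highest, at 143.9, 68.8 and 44.1 FPKM, in TSa2i-14 (p54), 2i-14 (p39) and TSa2i-C57 (p58), respectively, and 1.76 to 11.1 in the other libraries. Dcn, 1 of the 12, was listed at 0 in 2i-14 p18, 2i-14 p50 and 2i-O48-TKO. In these libraries, in that order, 6, 5 and 7 of the 12 were listed at 0, but Col1a1 had 1.48, 1.17 and 1.06 FPKM. Trophoblast markers (6 genes) summed to 10.3 to 14.6 FPKM in TSa2i/L, 3.50 to 8.10 in 2i/L and 1.64 to 7.67 after the switch. Krt7 and Ascl2 carried most of these sums, and the other 4 genes gave 0.416 to 1.76 FPKM in TSa2i/L, 0.391 to 1.50 in 2i/L and 0.0779 to 0.142 after the switch. Primitive endoderm markers (7 genes) summed to 0.663 to 4.11 FPKM over all libraries.

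Under the same dose of GSK3 inhibitor, the members differed widely in level, which is compared here per length as FPKM. Median FPKM over the 13 libraries was 3.04 for Tcf7 and 2.81 for Cdx1, 0.379 for Nkd2, 0.361 for Sp5, 0.302 for Lef1 and 0.283 for Axin2. It was 0.148 for Dkk1, 0.109 for T, 0.0937 for Nkd1 and 0 for Lgr5. Neighbours in this order overlapped in range, with the exception of Nkd1 and Lgr5. Of 130 member values, 30 reached 1 FPKM, 25 of them in Tcf7 or Cdx1, and 104 were at or above the level of 3 fragments. In bulk samples fewer cells that express a gene and less RNA per cell cannot be told apart.

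**Figure D1:**
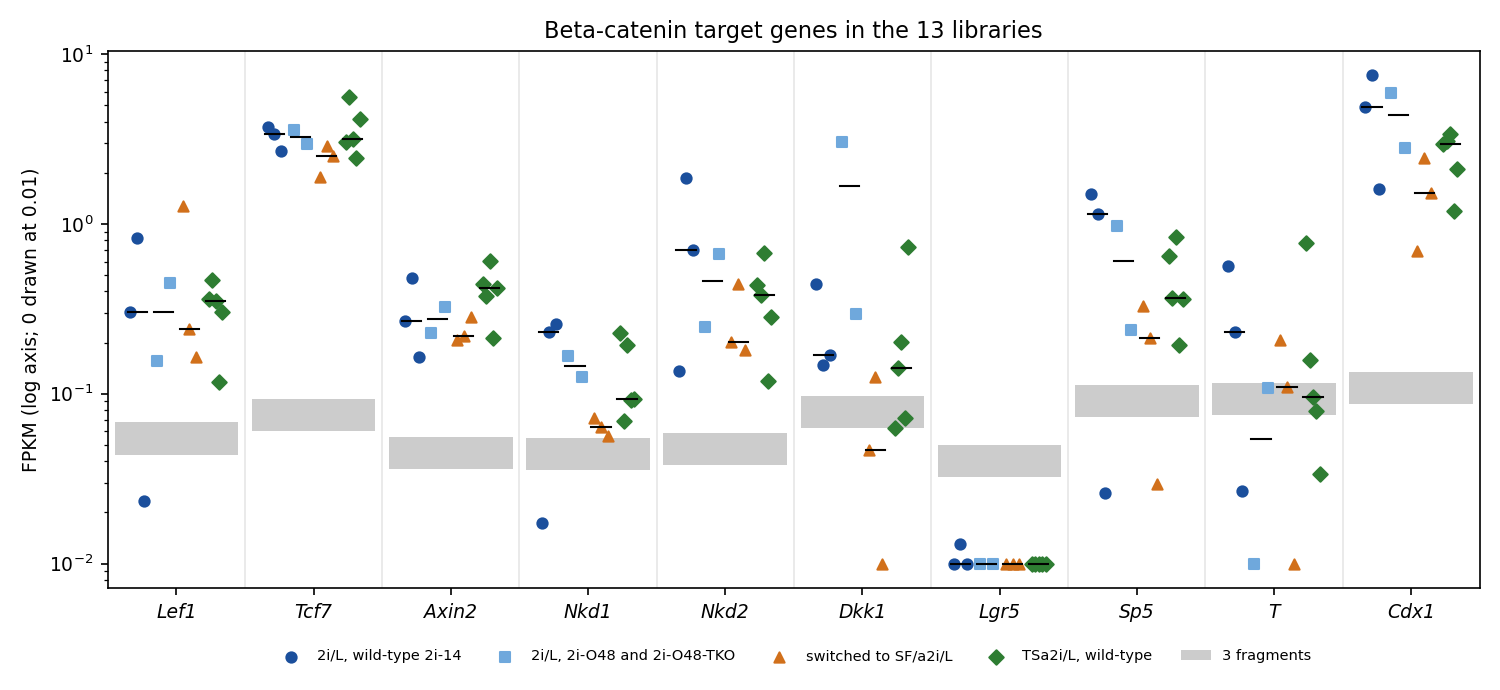
FPKM of the 10 members (log axis, values of 0 drawn at 0.01) in each library, coloured by group, with a black bar at the median of each group and a grey band at the FPKM that 3 fragments are worth. Tcf7 and Cdx1 sit highest, and Lgr5 is under the band in all 13 libraries.

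Lef1 and Tcf7 encode TCF/LEF factors that bind beta-catenin, and both are themselves targets. Tcf7 (chr11:52065873-52096681, NCBIM37) was the steadiest member, with 3.71 FPKM at p18, 3.37 at p39 and 2.68 at p50 of 2i-14, and 3.55 and 2.94 in 2i-O48 and 2i-O48-TKO. TSa2i-14 gave 3.04, 5.57 and 3.17 FPKM at p22, p47 and p54, TSa2i-C57 gave 2.46 and 4.12 at p9 and p58, and the switched cultures of 2i-O48, 2i-O48-TKO and 2i-14 gave 2.87, 2.50 and 1.89. The highest value was TSa2i-14 p47 and the lowest switched 2i-14, and the groups overlapped. Lef1 (chr3:130813389-130927274) had 0.302 FPKM at p18, 0.824 at p39 and 0.0232 at p50 of 2i-14, and 0.156 and 0.448 in 2i-O48 and 2i-O48-TKO. After the switch the values were 0.240, 0.165 and 1.27 FPKM in 2i-O48, 2i-O48-TKO and 2i-14, and in TSa2i/L it ranged from 0.118 to 0.467 with a median of 0.352. Switched 2i-14 alone was above 1 FPKM, and 2i-14 p50 alone was under the level of 3 fragments, at about 1.53 fragments.

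Axin2, Nkd1, Nkd2 and Dkk1 encode inhibitors of the pathway. Axin2 (chr11:108781663-108812097), a scaffold of the destruction complex and the target most often used as a readout, varied least among the low members, from 0.165 FPKM in 2i-14 p50 to 0.607 in TSa2i-14 p54. Its values were 0.267 FPKM at p18, 0.481 at p39 and 0.165 at p50 of 2i-14, 0.228 and 0.326 in 2i-O48 and 2i-O48-TKO, and 0.207 to 0.283 in the 3 switched libraries. The TSa2i/L values were 0.211 and 0.420 FPKM at p9 and p58 of TSa2i-C57 and 0.445, 0.379 and 0.607 in the same order of passages of TSa2i-14. Although 4 of the 5 TSa2i/L values lay above 4 of the 5 values in 2i/L, the groups overlapped through 2i-14 p39 and TSa2i-C57 p9.

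Nkd1 (chr8:91045243-91118786) and Nkd2 (chr13:73955982-73985079), which act on Dishevelled, were both low. Nkd1 lay between 0.0173 FPKM in 2i-14 p18 and 0.258 in 2i-14 p50, the lowest and the highest values coming from passages of the same line in the same medium. Nkd2 had 0.136 FPKM at p18, 1.87 at p39 and 0.702 at p50 of 2i-14, 0.247 and 0.669 in 2i-O48 and 2i-O48-TKO, and 0.119 to 0.677 in TSa2i/L. The highest Nkd2 value stood in 2i-14 p39, the 2i/L library with the most fibroblast marker RNA (68.8 FPKM against 2.41 and 2.52 in p18 and p50), whose part in it was not tested. In TSa2i-14, Nkd2 was also highest where that RNA was, in p54, at 0.677 FPKM against 0.437 and 0.379 at p22 and p47. In TSa2i-C57 it was 0.284 FPKM in p58, rich in that RNA, against 0.119 in p9. Across lines, Nkd2 stood at 0.702 and 0.669 FPKM in 2i-14 p50 and 2i-O48-TKO, both poor in that RNA.

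Dkk1 (chr19:30620353-30624155), a secreted antagonist that binds the Lrp co-receptors, reached 3.04 FPKM in 2i-O48, about 145 fragments. All other libraries lay between 0 and 0.732 FPKM, the latter in TSa2i-C57 p58. Fibroblast markers summed to 1.76 FPKM in 2i-O48, the lowest of the 13 libraries, and to 44.1 in TSa2i-C57 p58. Lgr5 (chr10:114887367-115024836), an R-spondin receptor and stem cell marker of the gut, had 0.0131 FPKM, under the level of 3 fragments, in 2i-14 p39 and 0 in the other 12, so it was not detectable at this depth.

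Sp5, T and Cdx1 encode transcription factors. Sp5 (chr2:70312980-70315786), which curbs other Wnt targets, had 1.51 FPKM at p18, 1.15 at p39 and 0.0259 at p50 of 2i-14, and 0.975 and 0.238 in 2i-O48 and 2i-O48-TKO. Switched cultures of 2i-O48, 2i-O48-TKO and 2i-14 gave 0.214, 0.0293 and 0.329 FPKM, and TSa2i/L gave 0.193 to 0.833. Cdx1 (chromosome 18), a caudal-type homeobox gene, had 4.88 FPKM at p18, 7.51 at p39 and 1.60 at p50 of 2i-14, and 5.93 and 2.81 in 2i-O48 and 2i-O48-TKO. The same 3 libraries, 2i-14 p18, 2i-14 p39 and 2i-O48, were the highest for Sp5 and for Cdx1, and 2i-14 p50 was the lowest in 2i/L for both. For Cdx1, TSa2i-14 gave 2.94, 3.07 and 3.39 FPKM at p22, p47 and p54, TSa2i-C57 gave 1.20 and 2.11 at p9 and p58, and switched 2i-O48, 2i-O48-TKO and 2i-14 gave 2.44, 1.52 and 0.688.

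T (chr17:8627288-8635361), or brachyury, had 0.568 FPKM at p18, 0.230 at p39 and 0.0266 at p50 of 2i-14, and 0 and 0.109 in 2i-O48 and 2i-O48-TKO. After the switch the values were 0.110, 0 and 0.208 FPKM in 2i-O48, 2i-O48-TKO and 2i-14, and in TSa2i/L it ran from 0.0338 to 0.767. T was at or above the level of 3 fragments in 8 libraries, with no order by medium. The 12 other markers of primitive streak and mesendoderm summed to 29.5 to 47.5 FPKM in 2i/L, 21.8 to 51.1 in TSa2i/L and 9.48 to 16.7 in the switched libraries. Most of each sum was Nodal, and the other 11 gave 2.17 to 4.25, 2.84 to 6.25 and 1.38 to 2.18 FPKM in these groups. Of the 2 tested after the switch, Nodal fell by 1.34 on the log2 scale (SE 0.25, limma adjusted p = 0.035). Of 4 tested in the other comparisons, Mesp2 rose by 1.10 (limma adjusted p = 0.015) in TSa2i/L against 2i-14 in 2i/L, and Nodal, Mesp2 and Gsc were called lower, by 1.44, 0.89 and 0.84 (limma adjusted p = 0.015, 0.022 and 0.043), in switched against TSa2i/L libraries.

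The first comparison set the 5 TSa2i/L libraries against the 3 libraries of 2i-14 in 2i/L, and asked whether the targets differ between the media that share CHIR99021. No member passed the test. Tcf7 and Cdx1, the members with at least 1 FPKM in 3 or more libraries, were tested with limma on log2(FPKM + 1), a scale that understates the change of low genes, with Benjamini-Hochberg adjustment over 10387 genes. Tcf7 was 3.67 ± 1.22 FPKM (SD, n = 5) in TSa2i/L and 3.26 ± 0.522 (n = 3) in 2i/L, a log2 difference of 0.10 (SE 0.22, limma adjusted p = 0.83). Cdx1 was 2.54 ± 0.890 FPKM (n = 5) against 4.66 ± 2.96 (n = 3), a log2 difference of -0.56 (SE 0.36, limma adjusted p = 0.39). The direction of Tcf7 turned with median centring, and without TSa2i-14 p47.

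The count of 0 members called stands beside 786 genes called among all genes, 7.57% of those tested (5.72% higher and 1.85% lower in TSa2i/L), and 2400 genes at an unadjusted p under 0.05. Groups stood apart for 0 of the 10 members, of which 2 were tested, against 16.5% of the genes tested and 11.9% of the 18909 genes with any FPKM above 0 in these libraries. In the fit with no filter on low values, the other members had log2 differences between -0.37 (Nkd2) and 0.12 (Axin2), and the lowest adjusted p among the 10 was 0.54. That setting gave 374 called genes.

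Among 100 further genes of the pathway, in 7 lists, 43 were tested and 5 were called, 3 higher and 2 lower in TSa2i/L, with a median log2 difference of 0.04 against 0.07 over all genes tested. Sfrp1 and Dkk3, which encode secreted proteins of the Wnt antagonist families, rose by 1.04 (SE 0.28, limma adjusted p = 0.048) and 0.99 (SE 0.25, limma adjusted p = 0.036) on the log2 scale. Csnk1a1, the casein kinase that primes beta-catenin for GSK3, rose by 0.75 (SE 0.18, limma adjusted p = 0.030). Notum, a lipase that inactivates Wnt ligands and is itself a described target, fell by 1.39 (SE 0.32, limma adjusted p = 0.025). Tcf7l1, the main repressor among the TCF factors of these cells, fell by 0.86 (SE 0.20, limma adjusted p = 0.029). Without the 3 libraries rich in fibroblast RNA, a setting added after the data were seen, none of these 5 passed (adjusted p = 0.12 to 0.34) and 229 genes were called.

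Tcf7l1 followed the medium in every library. It had 8.70 FPKM at p18, 9.20 at p39 and 6.74 at p50 of 2i-14, and 9.65 and 7.99 in 2i-O48 and 2i-O48-TKO. TSa2i-14 gave 3.46, 4.49 and 5.47 FPKM at p22, p47 and p54, TSa2i-C57 gave 3.01 and 4.20 at p9 and p58, and switched 2i-O48, 2i-O48-TKO and 2i-14 gave 3.43, 1.59 and 1.95. All 8 SF/a2i/L libraries were lower than all 5 libraries in 2i/L, with no overlap. Of 10164 genes with at least 1 FPKM in 5 libraries, 4.72% separated the media in this way and 1.89% did so with the SF/a2i/L libraries lower, and 0 of the 10 members did. Of the 42 pathway genes at that level, Tcf7l1 was the 1 with all SF/a2i/L libraries lower, Dkk3 was the 1 with all of them higher (1.50 to 3.82 against 0.397 to 1.30 FPKM), and 40 overlapped. The reading over all libraries was chosen after the values of Tcf7l1 were seen. In the first comparison the call of Tcf7l1 was lost without 2i-14 p18 (limma adjusted p = 0.084), without 2i-14 p39 (0.11) and without TSa2i-14 p47 (0.053).

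**Figure D2:**
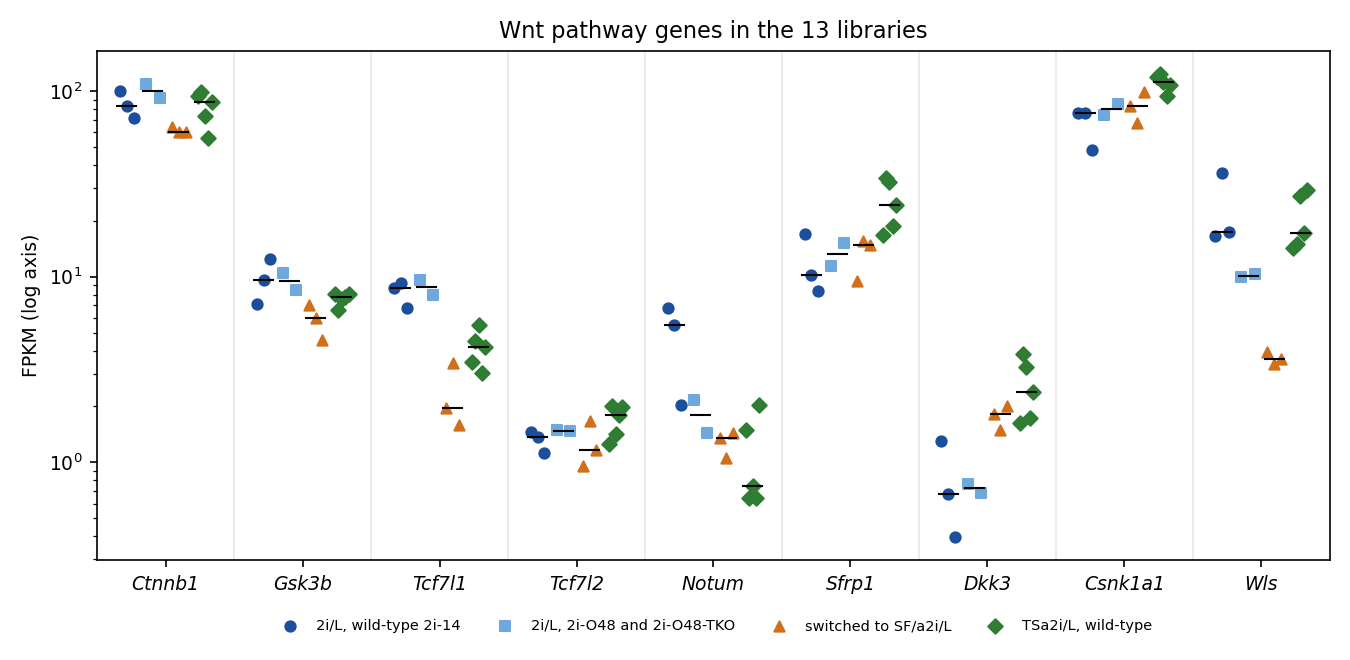
FPKM (log axis) of 9 pathway genes in each library, coloured by group, with a black bar at the median of each group. Tcf7l1 lies between 6.74 and 9.65 FPKM in the 5 libraries in 2i/L and between 1.59 and 5.47 in the 8 libraries in SF/a2i/L, while Ctnnb1 and Tcf7l2 overlap between the media.

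Beta-catenin itself, Ctnnb1, was abundant, at 56.2 to 108.6 FPKM over the 13 libraries, and was not called in any of the 4 comparisons. It was lower after the switch in 3 of 3 pairs, at 60.5 to 64.0 FPKM against 72.0 to 108.6 in all 5 libraries in 2i/L, a log2 difference of -0.53 (SE 0.20, limma adjusted p = 0.16), and passed with p18 of 2i-14 as the control (limma adjusted p = 0.032). The GSK3 genes Gsk3b and Gsk3a ranged from 4.55 to 12.5 and from 0.211 to 1.19 FPKM, respectively. Gsk3b was lower after the switch in 3 of 3 pairs, at 4.55 to 7.05 FPKM against 7.15 to 12.5 in all 5 libraries in 2i/L. From 2i-14 p18 the step was small, to 7.05 from 7.15 FPKM. For that comparison Gsk3b passed in 0 of 12 alternative settings (limma adjusted p = 0.055 to 0.45). Tcf7l2 lay between 0.950 and 2.02 FPKM. Neither Gsk3b nor Tcf7l2 was called in the comparisons.

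The second comparison followed 2i-O48, 2i-O48-TKO and 2i-14 from 2i/L to 5 passages after the switch, with the cell line as a block. The control of 2i-14 was p50, a library also used in the first comparison. No member passed. Cdx1 was lower after the switch in 3 of 3 pairs, at 0.688 FPKM from 1.60 in 2i-14, 1.52 from 2.81 in 2i-O48-TKO and 2.44 from 5.93 in 2i-O48, a log2 difference of -0.74 (SE 0.19, limma adjusted p = 0.074). With p39 or p18 of 2i-14 in place of p50 the log2 difference was -1.31 or -1.14 and Cdx1 passed, at limma adjusted p = 0.026 and 0.035. These controls also gave more calls over all genes, 15.5% with p39 (10.1% lower) and 15.1% with p18 (10.3% lower). Tcf7 was also lower in 3 of 3 pairs, with a log2 difference of -0.25 (SE 0.19, limma adjusted p = 0.44).

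Among 9759 genes tested, 672 were called, 6.89%, of which 2.22% of the tested genes were higher and 4.66% lower after the switch, and 2550 had an unadjusted p under 0.05. In all, 4 of the 10 members (Tcf7, Cdx1, Nkd1 and Dkk1) were lower in 3 of 3 pairs and 0 were higher in all of them. Genes lower in 3 of 3 pairs made up 29.4% of those tested and 22.5% of the 18837 genes with any FPKM above 0 in these libraries. With 2i-14 p18 as the control 5 members were lower in all pairs, against 26.6% of genes with any FPKM above 0, and with p39 6 were, against 25.4%. With no filter on low values no gene was called at all.

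Dkk1 went from 3.04 to 0.126 FPKM in 2i-O48, 24.1-fold lower, from 0.168 to 0.0469 in 2i-14 and from 0.294 to 0 in 2i-O48-TKO, at least 3.99-fold lower against a floor of 3 fragments in the switched library. The value in switched 2i-14, about 2.22 fragments, was also under that floor. Nkd1 was lower in each pair by 3.59-fold (2i-14), 2.62-fold (2i-O48) and 2.24-fold (2i-O48-TKO), though from 2i-14 p18, at about 1 fragment, it was higher after the switch. Sp5 in the DMR-deleted lines was lower after the switch. It went to 0.214 from 0.975 FPKM in 2i-O48, and to 0.0293 (about 1.03 fragments) from 0.238 in 2i-O48-TKO. In 2i-14 it was 0.329 FPKM after the switch, above 0.0259 in p50 (about 1.03 fragments) and below 1.51 in p18 and 1.15 in p39. The wild-type direction of Sp5 therefore rested on the control chosen, and the same was true of T, Axin2, Nkd1 and Nkd2. Nkd2 in 2i-14 was 0.203 FPKM after the switch, above 0.136 in p18 and below 1.87 in p39 and 0.702 in p50. In 2i-O48 Nkd2 was higher, 0.445 from 0.247 FPKM, and in 2i-O48-TKO lower, 0.182 from 0.669. Lef1 in 2i-14 was higher after the switch than at each of the 3 passages in 2i/L, in 2i-O48 it was higher, 0.240 from 0.156 FPKM, and in 2i-O48-TKO it was lower.

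**Figure D3:**
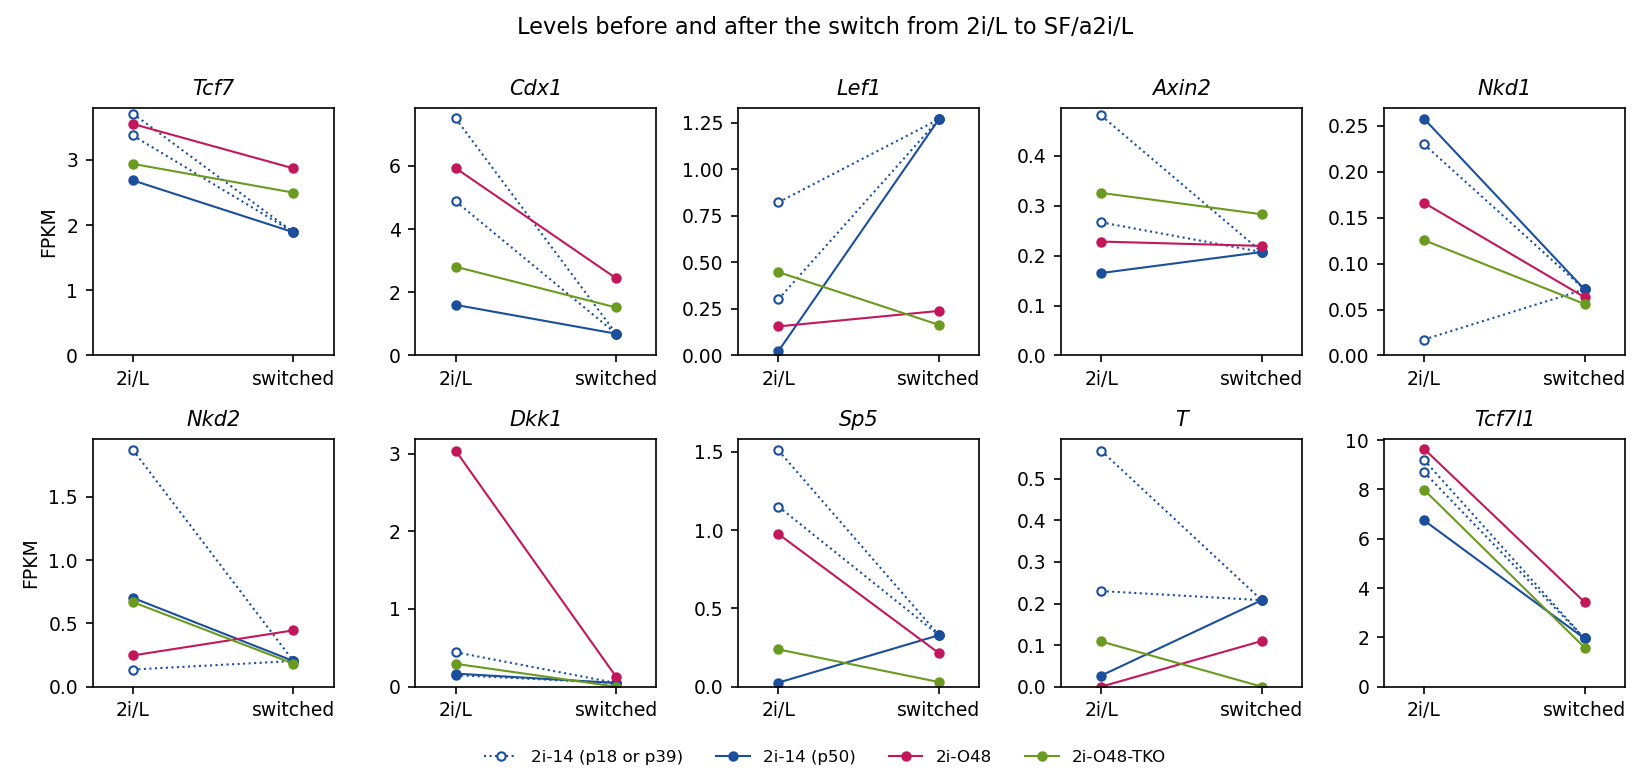
FPKM of 9 members and Tcf7l1 in 2i/L and after the switch to SF/a2i/L, with 1 line for each cell line and dotted lines from p18 and p39 of 2i-14. Cdx1, Tcf7, Dkk1 and Tcf7l1 slope down with every control, while the slopes of Sp5, T, Axin2, Nkd1 and Nkd2 in 2i-14 depend on the control.

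Of the 100 pathway genes, 41 were tested and 4 were called, all lower after the switch, with a median log2 difference of -0.11 against -0.09 over all genes tested. Wls, the carrier that Wnt ligands need for secretion, fell by 1.51 (SE 0.22, limma adjusted p = 0.020), Tcf7l1 by 1.48 (SE 0.21, limma adjusted p = 0.018) and Sfrp2 by 1.20 (SE 0.21, limma adjusted p = 0.029). Nanog, which Tcf7l1 is known to repress, fell by 0.93 (SE 0.20, limma adjusted p = 0.048) and did not pass without the block (limma adjusted p = 0.11). Of 4 genes listed as repressed by Tcf7l1, all tested, Nanog was the 1 called. Without 2i-O48-TKO, Tcf7l1, Sfrp2 and Nanog did not pass (limma adjusted p = 0.090, 0.12 and 0.26). Of the 6 ERK feedback genes, a readout of the pathway that PD0325901 blocks, Spry4, Dusp6 and Etv4 rose, by 1.50, 1.90 and 1.13 on the log2 scale (limma adjusted p = 0.048, 0.033 and 0.049). In the first comparison Spry4 and Etv4 rose by 0.83 and 0.64 (limma adjusted p = 0.041 and 0.049). The others of the 6 were not called in these comparisons. Summed FPKM of the 6 was 57.3 to 91.6 in TSa2i/L (median 67.2) and 75.4 to 99.9 in 2i-14 in 2i/L (median 77.5). The sum was 57.7 to 130.2 after the switch, against 47.5 to 99.9 in all 5 libraries in 2i/L. By pair it was higher after the switch, at 130.2 from 75.4 FPKM in 2i-14 (p50 as control). In 2i-O48 it was 84.7 from 61.8 FPKM, and in 2i-O48-TKO 57.7 from 47.5.

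The third comparison set 3 late (p47, p54 and p58) against 2 early (p22 and p9) passages in TSa2i/L, and limma called 0 of 10502 genes, 0% in either direction, with 928 at an unadjusted p under 0.05. Tcf7 had a log2 difference of 0.48 (SE 0.25, limma adjusted p = 0.59) and Cdx1 of 0.38 (SE 0.30, limma adjusted p = 0.70). Of the pathway genes 45 were tested and 0 called, with a median log2 difference of 0.24 against 0.09 over all genes tested. Fibroblast markers summed to 143.9 and 44.1 FPKM in late p54 and p58, 5.84 in late p47, and 11.1 and 2.97 in early p22 and p9. Passage was thus mixed in part with this RNA, and the 2 lines were not balanced between late and early.

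The fourth comparison set the 3 switched libraries against the 5 TSa2i/L libraries, which share the medium but differ in line, genotype and history, and these cannot be told apart. Tcf7 was 2.42 ± 0.494 FPKM (n = 3) against 3.67 ± 1.22 (n = 5), a log2 difference of -0.42 (SE 0.23, limma adjusted p = 0.22), and Cdx1 was 1.55 ± 0.877 against 2.54 ± 0.890 FPKM, a log2 difference of -0.49 (SE 0.28, limma adjusted p = 0.25). Without switched 2i-14 the Cdx1 difference was -0.22. The groups overlapped for all 10 members, whereas 21.8% of the genes tested and 15% of the 18997 with any FPKM above 0 did not, and 1504 of 10285 genes were called, 14.6%, with 2.43% higher and 12.2% lower in the switched libraries. Of 43 pathway genes tested 4 were called, all lower: Wls by 2.16, Sfrp1 by 0.86, Kremen2, a receptor of Dkk1, by 0.68 and Tnfrsf19, a described target, by 0.60 (limma adjusted p = 0.00083 to 0.047), with a median log2 difference of -0.19 against -0.17 over all genes tested. Wls stood at 27.1 to 36.0 FPKM in the 3 libraries rich in fibroblast RNA, against 3.37 to 17.3 elsewhere. Wls alone of these 4 also passed without TSa2i-14 p54 and TSa2i-C57 p58 (limma adjusted p = 0.0044).

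**Figure D4:**
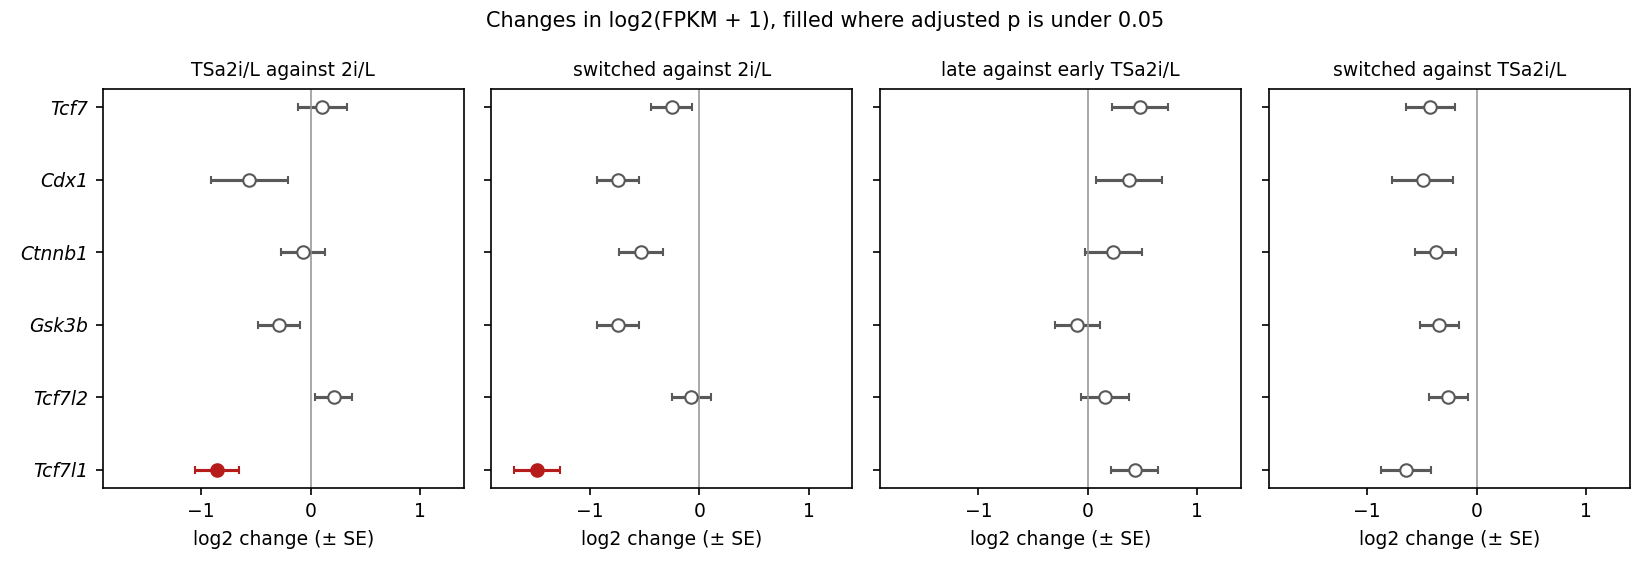
Differences in log2(FPKM + 1), with SE, of the tested members Tcf7 and Cdx1 and of 4 pathway genes in the 4 comparisons, filled where the limma adjusted p is under 0.05. Tcf7l1 is filled in the first and second comparison, at -0.86 and -1.48, and neither member is filled in any.

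The genes whose levels over the 13 libraries were most like those of each member were read as a description, since the libraries share lines and media. For Tcf7 they were Nbr1, Vps37b and Ganab, with Pearson's r of 0.91, 0.90 and 0.90 across libraries on log2(FPKM + 1), among 10730 genes compared. For Cdx1 they were Ipo4, Grk6 and Mark2, with r of 0.93, 0.92 and 0.90. None of the other members reached 1 FPKM in 3 libraries.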

How the data were processed

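RNA of haploid cells was amplified as full-length cDNA. Per the submitters' processing notes and the paper, the authors mapped reads to mm9 with TopHat2 2.0.11 and deposited FPKM values made with Cufflinks 2.2.1; the gene annotation is not given in the sources used here. Methylation and chromatin samples were not analysed here. FPKM of rows with the same symbol were summed. Comparisons were fitted with limma 3.58.1 (R 4.3.3) on log2(FPKM + 1) with an intensity trend, for genes that reached 1 FPKM in a number of libraries equal to the smaller group, with Benjamini-Hochberg adjustment over all genes tested and a threshold of 0.05. Depth was estimated from the FPKM that 1 fragment is worth on 3700 genes with a single transcript, over 1500 bases long, in GENCODE vM1 (NCBIM37). Fragment numbers of a gene used its longest coding transcript there. FPKM carry no counts, so fragment numbers are approximate and cover counting error only. Members and lists were chosen with earlier results of these data known. The text names all 10 members, pathway genes called (up to 5 in each direction), Ctnnb1, Gsk3a, Gsk3b, Tcf7l1 and Tcf7l2, and the 3 genes most like each member with at least 1 FPKM in 3 libraries. Of 14 gene lists, those of cell type markers and the ERK feedback genes were read as sums. Pairs in the switch come from the cell line in the labels; deviations of paired libraries from their group means correlated at 0.17 (2i-14), -0.14 (2i-O48) and 0.36 (2i-O48-TKO). In simulated data with 200 genes changed by a log2 of 2, limma recovered 94.5% for TSa2i/L against 2i/L (10161 genes), 95% for switched against 2i/L (9537 genes), 90% for late against early passages (10253 genes) and 95.5% for switched against TSa2i/L (10072 genes), with 10 of 199, 11 of 201, 14 of 194 and 7 of 198 calls false. Changes smaller than a log2 of 2 were not simulated, so these shares do not cover differences of the size seen for Tcf7 and Cdx1. Marker sums without their leading genes were read after the sums were seen. Alternatives covered the pseudocount (0.1), the filter, median centring, the trend, repeated symbols, the block, controls, and leaving out each library or line. Other steps used Python and matplotlib.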

Additional observations from a re-analysis of the deposited data

Results flagged for a closer look

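In the 5 TSa2i/L libraries, T in TSa2i-14 p22 (0.767 FPKM) lay far above the rest, with a gap of 0.831 of the whole range. Dkk1 in TSa2i-C57 p58 (0.732 FPKM) did so as well, with a gap of 0.794 of the range. The limit used is one that chance passes in about 1 in 20 groups of normally spread values, a rate not measured here, and 24 genes were read this way. After the switch, Sp5 was higher in 2i-14 (log2 difference 0.37, with p50 as control) and lower in both DMR-deleted lines, and Axin2 was likewise higher in 2i-14 by 0.0512 and lower in both. The difference between the lines was not tested, and both signs turned with p18 or p39 as the control. Sp5 was at about 1.03 fragments in 2i-14 p50 and in switched 2i-O48-TKO, under the level of 3 fragments.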

How the results depend on the processing

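The number of genes called depended on the setting. Of the members only 2, Tcf7 and Cdx1, were tested in the main fits, so their count had little room to move. With a mean FPKM of at least 5 neither was tested. With no filter, 374 genes were called in TSa2i/L against 2i/L, 0 after the switch and 628 in switched against TSa2i/L. A mean FPKM of at least 5 gave 458 and 369 in the first and second comparison. TSa2i-14 alone gave 468, and adding 2i-O48 and 2i-O48-TKO to 2i/L gave 1250. With 2i-14 p39 or p18 as control, 1522 or 1483 genes and 1 member, Cdx1, were called after the switch. Leaving out 1 library gave 383 to 846 genes in the first comparison and 516 to 2188 in switched against TSa2i/L, leaving out 1 line gave 311 to 1461 in the second, and in the third it gave 0 to 8, the 8 without TSa2i-14 p47. Without the libraries rich in fibroblast RNA, chosen after the data were seen, 229 and 455 genes were called in TSa2i/L against 2i/L and in switched against TSa2i/L. Tcf7 in the first comparison turned to -0.0167 with median centring, -0.0541 over all 8 against all 5 libraries and -0.0274 without TSa2i-14 p47, and leaving out 1 library moved it from -0.0274 to 0.204. Ctnnb1 turned to 0.0613 with TSa2i-14 alone, 0.0554 without 2i-14 p18 and 0.0569 without TSa2i-C57 p9, and leaving out 1 library moved it from -0.182 to 0.0569. Tcf7l2 turned to 0.0940 and 0.00334 with median centring after the switch and in switched against TSa2i/L. The cause was not tested. Median centring moved the median by 0.12, -0.17, 0.12 and -0.26 in the 4 comparisons. Without the replicate block, 778 genes and 0 members were called after the switch, and with the line as a block 0 genes and 0 members between late and early passages. Tcf7l1 passed in 12 of 18 alternatives in the first comparison (adjusted p = 0.0028 to 0.16) and 10 of 12 in the second (0.0032 to 0.15). Depth limits Lgr5, T and Dkk1, and some values of Sp5, Lef1 and Nkd1, and the passages are not independent lines.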
